A study of Homo sapiens with 18 samples.

Results

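The 49 genes described here are interferon-stimulated genes together with the sensors and transcription factors through which a cell detects viral RNA. Their rows were taken by gene symbol from a table of 21111 probes for 19289 genes, which gave 51 probes, because OAS1 and IFITM2 have 2 probes each. They were followed in the TNBC (triple-negative breast cancer) cell lines BT549, Hs578T and SUM149PT. Each line was transfected for 72 h with 50 nM of siASAP1, a pool of siRNAs against the mRNA of ASAP1, or with siCtrl. ASAP1 is a GTPase-activating protein, which makes ARF proteins hydrolyse their GTP. There were 3 biological replicates per group and 18 libraries in all. The siCtrl was a mixture of siRNAs against kinases, delivered with the same reagent (INTERFERin), so siCtrl cells are transfected cells as well, and a response that both siRNAs evoke cannot be told apart from the resting state of a line. Per the methods of the study the mixture leaves individual kinase genes unaffected, which was not tested here.

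RNA was measured by TempO-Seq, in which paired detector oligos are ligated on their target RNA and counted by sequencing. The libraries held 4633629 to 12488575 reads (median 6631860). A value below is a normalized count, the reads of a probe divided by the size factor of its library, and 3 reads came to a normalized count of 1.73 to 4.80 depending on the library. Limits and intervals from reads cover counting error only. Probes differ in efficiency, so levels were compared between libraries for 1 gene and not between genes.

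Cytosolic RNA helicases such as RIG-I (DDX58) and MDA5 (IFIH1) bind viral or other foreign RNA and signal through MAVS and the kinase TBK1 to the transcription factors IRF3 and IRF7, which switch on interferon genes. Secreted interferon then acts through JAK kinases, STAT2 and IRF9 on a large set of target genes, among them IFIT1, ISG15, MX1 and the oligoadenylate synthetases. Interferon-γ acts in part through IRF1 and is known for inducing the guanylate-binding proteins (GBPs). Duplex siRNA can trigger the same sensors, which is why these genes serve as a check for an innate response in knockdown experiments.

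The targeted gene and the likeness of the libraries were examined first. ASAP1 stood at 1107, 966 and 944 in BT549 siCtrl and at 367, 730 and 783 in siASAP1. In Hs578T it stood at 1641, 1414 and 2697 in siCtrl and at 782, 825 and 1261 in siASAP1. The groups did not overlap in either line (Log2 FC −0.75 ± 0.39 SE and −0.98 ± 0.32 SE, limma adjusted p = 0.647 and 0.915; two-sided exact permutation p = 0.1 in each, the smallest that 3 against 3 libraries allow). In SUM149PT the siCtrl values were 1087, 189 and 1314 and the siASAP1 values 282, 468 and 184 (exact permutation p = 0.3). The library labelled SUM149PT siCtrl replicate 2 thus held ASAP1 at the level of the siASAP1 libraries. Over 10475 probes it was also more like siASAP1 replicates 1 and 3 (r = 0.875 and 0.880) than like siCtrl replicates 1 and 3 (r = 0.770 and 0.749). SUM149PT siASAP1 replicate 2 in turn was more like siCtrl replicates 1 and 3 (r = 0.888 with each) than like siASAP1 replicates 1 and 3 (r = 0.835 and 0.817), and BT549 siASAP1 replicate 1 was the least like its replicates in that line (r = 0.876). The deviation of a library from the mean of its line, both treatments together, also moved with the GC content of the transcripts. The r was −0.34 in SUM149PT siCtrl replicate 2, 0.34 in SUM149PT siASAP1 replicate 2, −0.37 in BT549 siASAP1 replicate 1 and 0.44 in BT549 siASAP1 replicate 3. The difference between treatments is part of this deviation. A GC correction, chosen after seeing the data, was run as an alternative, and its results are given below. Whether the SUM149PT libraries labelled siCtrl replicate 2 and siASAP1 replicate 2 were exchanged was not tested. The labels were kept as given, so every SUM149PT value after siASAP1 carries this doubt, and the counts of members that passed in SUM149PT are given with and without these libraries. Counts by role, by plain order of values and of markers rest on all of the libraries.

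Many members share a sequence feature that the choice of genes did not use, the interferon-stimulated response element (ISRE), to which STAT and IRF factors are known to bind. Promoter windows (250 bases before to 50 after the gene start, RefSeq, GRCh38.p14) were at hand for 37 of the 49 genes. The letters GAAANNGAAA, or TTTCNNTTTC on the other strand, with overlapping matches counted, occurred in 22 of these 37 windows and in 3.65% of all 27305 windows. A match is a description of letters, not of a bound site. The windows of 10 members, picked among those that hold the pattern, are shown 5′ to 3′ on the strand of the gene, with the pattern in capitals. The first 7 belong to genes that passed the limits described below in at least 1 line, as did IFITM3, which holds the pattern and is not shown, and STAT2, IFI35 and XAF1, whose windows do not hold it, and the last 3 belong to classical interferon targets, of which ISG15 and IFIT1 were tested and did not pass upward and MX1 was below the minimum for testing.
GBP1 (chr1:89065306-89065355, minus strand): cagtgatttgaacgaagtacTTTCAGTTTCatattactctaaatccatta
GBP3 (chr1:89022835-89022884, minus strand): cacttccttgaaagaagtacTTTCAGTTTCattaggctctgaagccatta
SAMD9 (chr7:93118086-93118135, minus strand): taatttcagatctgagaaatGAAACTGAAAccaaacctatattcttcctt
PARP14 (chr3:122680790-122680839, plus strand): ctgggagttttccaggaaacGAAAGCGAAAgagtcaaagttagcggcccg
IFI27 (chr14:94110608-94110670, plus strand): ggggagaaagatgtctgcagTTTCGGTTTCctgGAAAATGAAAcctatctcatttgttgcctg
IFIT3 (chr10:89327821-89327904, plus strand): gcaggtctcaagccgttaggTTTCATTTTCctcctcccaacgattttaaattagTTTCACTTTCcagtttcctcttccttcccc
BST2 (chr19:17405725-17405780, minus strand): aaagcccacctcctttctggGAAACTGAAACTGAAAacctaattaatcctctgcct
ISG15 (chr1:1013364-1013419, plus strand): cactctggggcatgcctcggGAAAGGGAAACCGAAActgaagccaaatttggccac
MX1 (chr21:41420549-41420598, plus strand): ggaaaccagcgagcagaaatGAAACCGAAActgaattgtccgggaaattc
IFIT1 (chr10:89392487-89392549, plus strand): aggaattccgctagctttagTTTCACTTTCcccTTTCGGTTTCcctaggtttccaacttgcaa

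At baseline, in siCtrl cells, the probes of the module were read in part. Of the 51 probes, 20 had a mean normalized count under 10 in BT549, 16 in Hs578T and 21 in SUM149PT, and 9 stayed under 10 in the mean of every group, siASAP1 included. Some transcription factors and effectors were thus read in every siCtrl library, and several sensors at or near 0. At such values a probe of low efficiency cannot be told apart from a gene that is not expressed. Among sensors, EIF2AK2, the RNA-activated kinase PKR, was read at 129, 170 and 225 in BT549, at 97.9, 156 and 148 in Hs578T and at 93.0, 201 and 120 in SUM149PT. IFIH1 reached at most 4.08 in any siCtrl library, and DHX58, a regulator of both helicases, at most 1.89. The oligoadenylate synthetases, which answer duplex RNA, were low, with OAS2 at 0 in all 9 siCtrl libraries, the more abundant OAS1 probe at most 8.44, OAS3 at most 20.02 and their relative OASL at most 33.6. Every siCtrl library expressed IRF1 (452 to 4732) and STAT2 (194 to 606), while IRF7 was at 0 in 8 of 9 and IRF9 in 8 of 9. RSAD2, CMPK2 and MX1 stayed under 5 in every siCtrl library. IFNB1, the interferon gene that RNA sensing is best known for inducing, had 0 reads in all 18 libraries, as had TLR3, the endosomal RNA receptor, which allows a normalized count of at most 1.73 to 4.80.

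**Figure D1:**
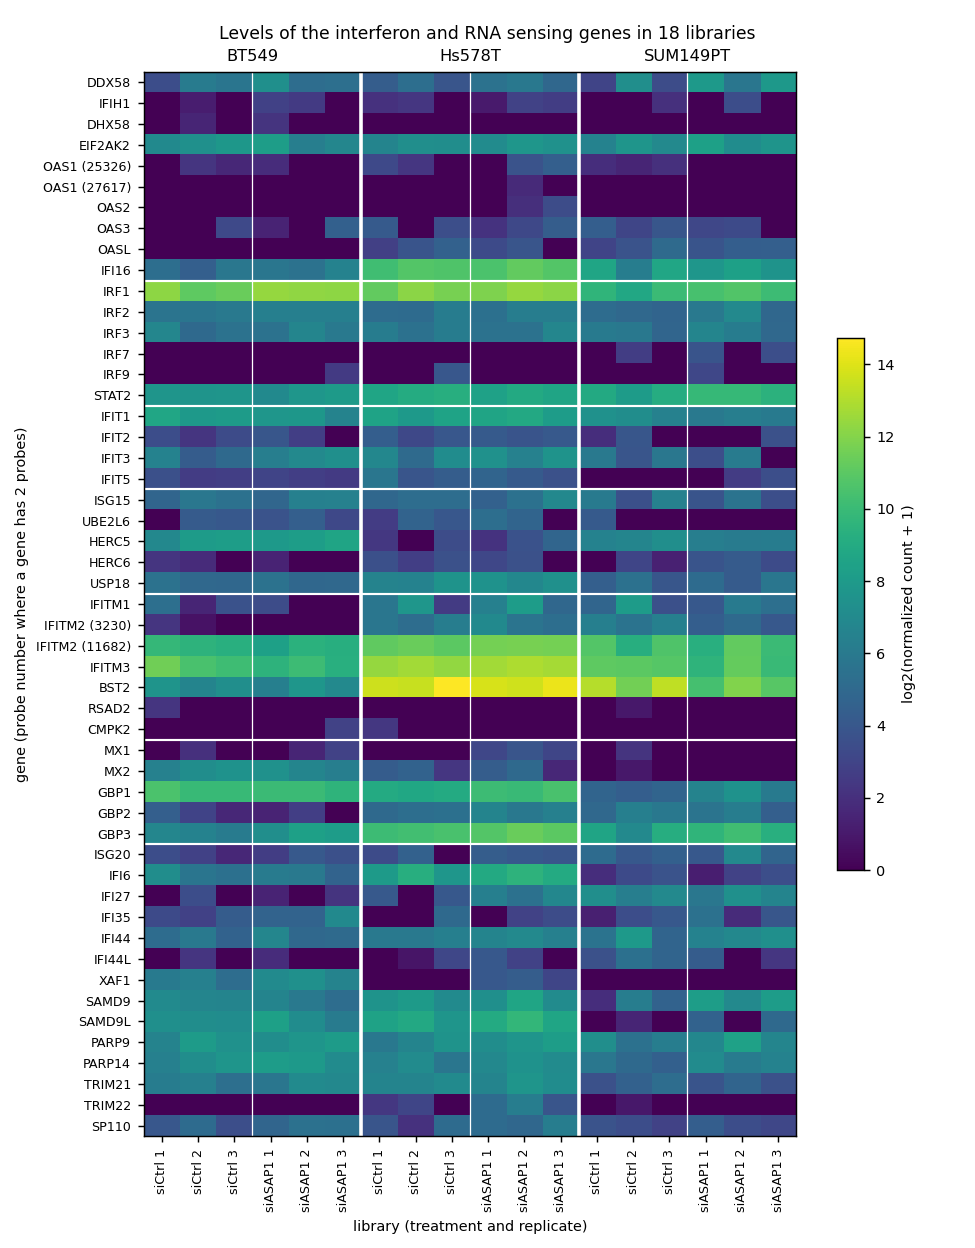
Levels of the 51 probes (rows, ordered by role and separated by white lines) in the 18 libraries (columns, by cell line, treatment and replicate), as log2(normalized count + 1) in colour. IRF1, STAT2 and EIF2AK2 are read in every library, OAS2, RSAD2, CMPK2 and DHX58 stay under 10 throughout, and BST2 and XAF1 separate the lines.

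The lines differed from each other in which antiviral genes they kept on. Of 37 member probes whose mean over the siCtrl libraries reached a normalized count of 10, 8 were higher and 8 lower in SUM149PT than in BT549 (limma adjusted p under 0.05 with an absolute Log2 FC over 1), where the same limits took 9.4% of all probes as higher and 8.76% as lower. Against Hs578T, 3 were higher and 12 lower in SUM149PT, where all probes gave 9.64% and 10.5%. In BT549 4 were higher and 8 lower than in Hs578T, where all probes gave 6.26% and 7.58%. Without the library labelled SUM149PT siCtrl replicate 2 these counts were 8 and 10, 2 and 13, and 4 and 9 of 36, where all probes gave 14.8% and 18.4%, 13.2% and 17.5%, and 9.96% and 11.4%. In all, 22 of the 49 genes (36 tested) passed in at least 1 of the comparisons, where 31.5% of all 9678 tested genes did so.

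SUM149PT read several members lower than both other lines, some of them at or near 0. SAMD9L, a growth and translation inhibitor of the interferon program, was read at 163, 150 and 144 in BT549 and at 365, 470 and 208 in Hs578T, against 0, 1.82 and 0 in SUM149PT, 431-fold lower than in Hs578T by summed reads (95% counting interval 119 to 3566). MX2, a GTPase that blocks nuclear entry of retroviruses, was read at 87.3, 150 and 180 in BT549 and at 18.6, 23.7 and 3.94 in Hs578T, and SUM149PT had 1 read in its 3 siCtrl libraries. GBP1 stood at 1515, 978 and 990 in BT549, at 506, 441 and 510 in Hs578T and at 25.7, 20.04 and 25.6 in SUM149PT, with no overlap between lines (SUM149PT against BT549 Log2 FC −5.53 ± 0.34 SE, adjusted p = 5.28e-06). IFI6, a mitochondrial and endoplasmic reticulum protein, was at 2.86, 9.11 and 12.8 in SUM149PT against 258, 600 and 214 in Hs578T (Log2 FC −5.31 ± 0.71 SE, adjusted p = 0.000453). IFIT5 had no reads in SUM149PT siCtrl, at least 23.6-fold lower than in Hs578T when 3 reads are allowed over the group. In BT549 siCtrl IFIT5 was low as well, with 9, 8 and 8 reads. In the other direction, IFI27 was read at 152, 76.5 and 120 in SUM149PT, at 0, 10.1 and 0 in BT549 and at 16.0, 0 and 15.8 in Hs578T. IFI44L, a relative of IFI44 and low in all lines, was at 11.4, 42.8 and 25.6 in SUM149PT and at 0, 0.816 and 7.88 in Hs578T.

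Other members separated BT549 and Hs578T. XAF1, a partner of the apoptosis inhibitor XIAP, was read at 66.1, 84.9 and 37.9 in BT549 and had no read in the siCtrl libraries of either other line, at least 72.4-fold lower in Hs578T and at least 51.2-fold lower in SUM149PT (against 3 reads over a group). HERC5, the main ligase for ISG15, was at 115, 275 and 291 in BT549 and at 90.1, 103 and 157 in SUM149PT, against 4.22, 0 and 9.85 in Hs578T (BT549 against Hs578T Log2 FC 5.78 ± 0.84 SE, adjusted p = 0.00114). BST2 (tetherin), which holds budding virions at the cell surface, was at 12532, 11497 and 27272 in Hs578T and at 8789, 3054 and 10110 in SUM149PT, but at 198, 99.4 and 152 in BT549 (BT549 against Hs578T Log2 FC −6.77 ± 0.53 SE, adjusted p = 3.63e-05). IFI16, a nuclear DNA sensor, was at 1169, 1749 and 1622 in Hs578T, at 405, 73.8 and 417 in SUM149PT and at 38.7, 21.4 and 57.5 in BT549. One of the IFITM2 probes was at 54.0, 37.5 and 73.9 in Hs578T and at 80.1, 47.4 and 84.7 in SUM149PT but at most 3.74 in BT549, whereas the other IFITM2 probe was read in BT549 at 892, 741 and 637. Transcripts of IFITM2 and IFITM3 are 93.8% identical over 713 aligned bases, so reads of these genes are uncertain in origin.

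After siASAP1 no gene of the fixed core passed upward in more than 1 line, whereas the members GBP1 and GBP3, outside that core, passed upward in 2 lines each. IFIT3, IFI27 and STAT2 passed upward in 1 line each, and IFIT1 and ISG15, which interferon strongly induces, in none. MX1, OAS1, IRF7 and IFIH1 were below the minimum for testing in every line, so their values are given with no test. The limits used were those of the study, an unadjusted p under 0.05 with an absolute Log2 FC over 1. In the main fit no probe of any kind passed an adjusted p of 0.05 within a single line (limma). There 754, 502 and 1025 probes had an unadjusted p under 0.05 in BT549, Hs578T and SUM149PT. Under other fits given below some probes passed an adjusted p of 0.05, GBP1, GBP3 and SAMD9 among them. Under these limits 4 of 30 tested member probes were higher and 1 lower in BT549, where 3.28% of all probes passed upward and 3.69% downward. In Hs578T 4 of 35 were higher and 0 lower, where 1.34% and 1.44% of all probes passed. In SUM149PT 5 of 31 were higher and 2 lower, where 5.27% and 4.29% passed. The remaining probes of the 51 did not reach a mean normalized count of 10 in that line. The median Log2 FC of the tested members was 0.31, 0.48 and 0.29 in the 3 lines, beside −0.00, 0.01 and 0.09 over all probes, and a probe that reached the minimum only through the higher group had to differ. In all, 14 of the 49 genes (38 tested) passed in at least 1 line in either direction, where 15.3% of all 10891 tested genes did so, and GBP1 and GBP3 in 2 lines each.

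These counts depended on single libraries. Without the library labelled SUM149PT siCtrl replicate 2, 4 of 33 member probes were higher (DDX58, SAMD9, IFI44 and GBP1) and 3 lower (BST2, ISG15 and the less abundant IFITM2 probe) in SUM149PT, where 14.4% and 8.94% of all probes passed, and 107 of all 9953 probes passed an adjusted p of 0.05 there, none of them a member. Without SUM149PT siASAP1 replicate 2 alone, 5 of 32 were higher and 4 lower, where 5.21% and 6.2% of all probes passed. With both of these libraries left out, which leaves 2 against 2, 7 of 33 were higher (DDX58, EIF2AK2, GBP1, IFI44, PARP14, SAMD9 and SAMD9L) and 7 lower (BST2, IFI16, IFIT3, IFITM3, ISG15 and both IFITM2 probes), where 23.5% and 16.9% of all probes passed the same limits, and 3734 of all 9871 probes passed an adjusted p of 0.05. The Log2 FC was then 4.65 for DDX58, 4.90 for SAMD9, −2.54 for BST2, −2.58 for ISG15 and 0.61 for GBP3, which did not pass. DDX58 and SAMD9L there, SAMD9L without siASAP1 replicate 2 alone and DDX58 without siCtrl replicate 2 alone had a siCtrl mean under 10 (8.37 for DDX58, at most 0.607 for SAMD9L), and IFIT3 a siASAP1 mean of 5.29. They were tested only through the other group and had to differ. These libraries were left out, a choice made after seeing the data, because they were like the other treatment, so the p-values of that fit are too small and its counts are a description. Without BT549 siASAP1 replicate 1, 544 of 9658 probes passed an adjusted p of 0.05 in BT549, among them 1 member, GBP3 (Log2 FC 1.79, limma adjusted p = 0.0401). By the study's limits 5 of 30 members passed there, GBP3, IFI35 and IFIT3 upward and IFIT1 and SAMD9 downward. Of all probes 9.28% passed upward and 13.2% downward.

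IFIT1, an RNA-binding protein that blocks translation of viral mRNA, passed in no line with all libraries. It stood at 426, 240 and 271 in BT549 siCtrl and at 216, 220 and 94.9 in siASAP1, at 173, 148 and 87.9 in SUM149PT siCtrl and at 60.9, 79.5 and 65.7 in siASAP1, with no overlap in either line. In Hs578T it was at 375, 239 and 376 and then 390, 469 and 286. The Log2 FC values were −0.87 ± 0.47 SE, −0.93 ± 0.50 SE and 0.21 ± 0.32 SE (limma adjusted p = 0.651, 0.569 and 0.964), so none passed, and in SUM149PT it was −0.85 ± 0.54 SE without siCtrl replicate 2 (adjusted p = 0.352). Without BT549 siASAP1 replicate 1 IFIT1 passed downward in BT549 (−1.06 ± 0.46 SE, limma adjusted p = 0.180), where 13.2% of all probes did so. ISG15, a ubiquitin-like protein that is joined to viral and cellular proteins, was at 27.5, 56.0 and 44.9 and then 27.6, 83.1 and 89.4 in BT549, at 29.5, 37.5 and 37.4 and then 22.7, 44.5 and 118 in Hs578T, and at 65.8, 10.9 and 86.3 and then 13.2, 47.4 and 10.5 in SUM149PT. The groups overlapped in each line. MX1, a GTPase that traps viral nucleocapsids, was at 0 in the 3 Hs578T siCtrl libraries and at 7.93, 13.9 and 7.46 in siASAP1, 38 reads against 0 and at least 12.2-fold higher against 3 reads over the group, below the minimum for testing. It stayed at or under 6.39 in every library of the other lines. OAS2 had no read in 16 of 18 libraries and 5 and 9 reads in Hs578T siASAP1 replicates 2 and 3, 14 reads against 0 in siCtrl. The more abundant OAS1 probe was at 8.44, 4.08 and 0 in Hs578T siCtrl and at 0, 12.7 and 21.3 in siASAP1, and at most 3.77 in the other lines. IFIH1 reached 10.3 at most and IRF7 13.2 at most in any of the 18 libraries.

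**Figure D2:**
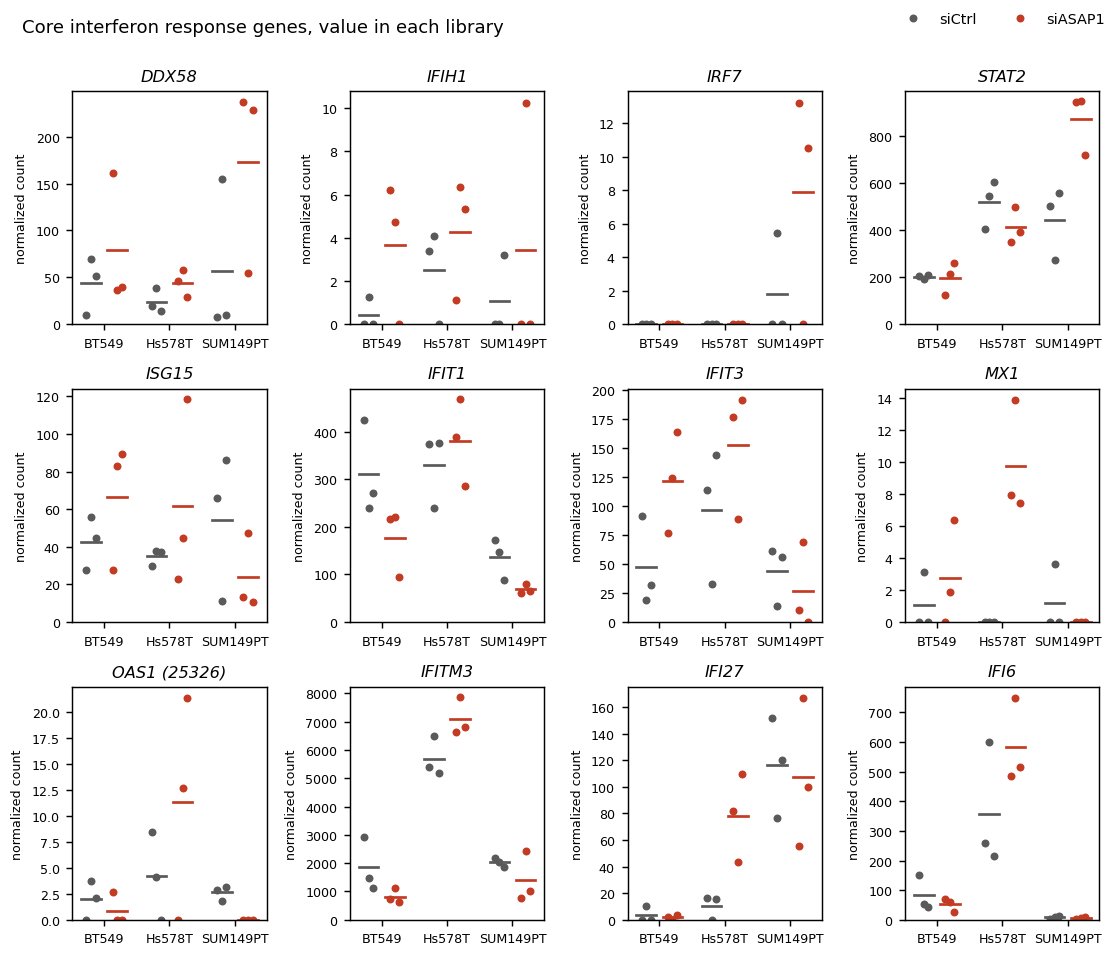
Normalized count of 12 core interferon response genes in each library (points; line, mean of 3 replicates) for siCtrl (grey) and siASAP1 (red) in the 3 cell lines, each panel with its own linear axis from 0. The points of IFIT1 lie lower after siASAP1 in BT549 and SUM149PT, where it did not pass the limits, IFI27 is higher in Hs578T, where it passed, and the points of ISG15 overlap in every line.

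None of 3, 4 and 4 tested sensor probes passed in BT549, Hs578T and SUM149PT, where 3.28%, 1.34% and 5.27% of all probes passed upward, so that a count of 0 among so few probes says little. DDX58 (RIG-I) was read at 9.98, 69.8 and 51.2 in BT549 siCtrl and at 162, 36.8 and 40.2 in siASAP1. In Hs578T it was read at 19.4, 38.3 and 13.8 and then at 46.5, 57.8 and 28.8. In SUM149PT it was read at 7.15, 155 and 9.59 in siCtrl and at 237, 55.1 and 229 in siASAP1, so the high siCtrl library was replicate 2 and the low siASAP1 library replicate 2. The groups overlapped in all lines, and the Log2 FC of 2.61 ± 1.19 SE in SUM149PT did not pass. Without siCtrl replicate 2 it was 3.97 ± 0.80 SE (limma adjusted p = 0.0569), past the unadjusted limits. With a siCtrl mean of 8.37 it was then tested only through the siASAP1 group. Without siASAP1 replicate 2 alone DDX58 also passed the unadjusted limits (Log2 FC 3.297, limma adjusted p = 0.433). Its siCtrl mean was then 57.2, above the minimum for testing, with the high siCtrl replicate 2 still included. EIF2AK2 passed in no line. Of the ISG15 pathway (ISG15, UBE2L6, HERC5, HERC6 and USP18), 0 of 4, 3 and 3 tested probes passed, to be read against the same shares.

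SAMD9, a cytosolic inhibitor of poxviruses and of translation, passed in SUM149PT. It was read there at 2.86, 73.8 and 24.0 in siCtrl and at 296, 122 and 286 in siASAP1, a rise with no overlap (Log2 FC 3.50 ± 1.05 SE, limma adjusted p = 0.377). Without siCtrl replicate 2 the Log2 FC was 4.48 ± 0.87 SE (adjusted p = 0.0552), and without siCtrl replicate 1 it was 2.34. In BT549 SAMD9 was at 134, 102 and 98.9 and then at 97.8, 60.4 and 37.4, lower with no overlap and not past the limits, and in Hs578T at 188, 261 and 134 and then at 161, 398 and 139. Without BT549 siASAP1 replicate 1 it passed downward in BT549 (−1.20 ± 0.43 SE, limma adjusted p = 0.125), where 13.2% of all probes did so. The companion genes CGAS (listed as MB21D1), a DNA sensor, and PNPT1, a mitochondrial RNA exonuclease, both shown after their values were seen, were high in the same siCtrl library. PNPT1 was read at 18400 in SUM149PT siCtrl replicate 2, at 3219 and 3597 in siCtrl replicates 1 and 3, and at 7052, 2165 and 6928 in siASAP1. CGAS was read at 5047 in that siCtrl library against 589 and 606, at 2851, 404 and 3053 in siASAP1, and at 5996 in BT549 siASAP1 replicate 1 against 999 and 1439 in its replicates.

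The GBPs, large interferon-induced GTPases that coat intracellular pathogens and their vacuoles, held the only member that passed over the 3 lines. With MX1 and MX2, the GTPase probes tested were 3, 4 and 3 in BT549, Hs578T and SUM149PT, of which 1, 2 and 2 were higher, where 3.28%, 1.34% and 5.27% of all probes passed upward. GBP3 was at 109, 90.5 and 68.0 in BT549 siCtrl and at 156, 335 and 278 in siASAP1. In Hs578T it was at 1100, 1221 and 1433 and then at 1773, 2615 and 2092. In SUM149PT it was at 389, 124 and 569 and then at 806, 1201 and 637. Every siASAP1 library thus exceeded every siCtrl library of its line, in all 3 lines. The Log2 FC was 1.47 ± 0.46 SE in BT549, 0.78 ± 0.25 SE in Hs578T and 1.49 ± 0.61 SE in SUM149PT, past the limits in BT549 and SUM149PT (limma adjusted p = 0.526, 0.915 and 0.470). Without SUM149PT siCtrl replicate 2, GBP3 no longer passed in that line (0.85 ± 0.40 SE, adjusted p = 0.222), and with 1 library left out at a time it passed there in 1 of 6, against 6 of 6 in BT549.

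GBP1 passed in Hs578T and SUM149PT and did not pass in BT549. In Hs578T it went from 506, 441 and 510 to 1117, 1027 and 1468 (Log2 FC 1.29 ± 0.26 SE, limma adjusted p = 0.711). In SUM149PT it went from 25.7, 20.04 and 25.6 to 95.3, 183 and 63.1 (2.08 ± 0.61 SE, adjusted p = 0.377, and 1.97 ± 0.65 SE without siCtrl replicate 2). In BT549, where it was highest at baseline, it was at 1515, 978 and 990 and then at 1072, 1060 and 758 (−0.26 ± 0.36 SE), with overlap. GBP2 passed in Hs578T (32.1, 38.3 and 42.4 to 97.5, 59.0 and 83.2; Log2 FC 1.05 ± 0.41 SE, adjusted p = 0.923) and was low or overlapping elsewhere. With 1 library left out at a time GBP1 passed in 6 of 6 in both lines, and GBP2 had 0.89 (without Hs578T siASAP1 replicate 1) to 1.25 and passed in 2 of 6. GBP2 is shown after its values were seen. Transcripts of GBP1 and GBP3 are 88.9% identical over 2978 aligned bases and the detector oligo sequences were not used here, so sharing of reads between GBPs is uncertain. In BT549 GBP3 passed and GBP1 did not, and the difference between the genes was not tested.

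**Figure D3:**
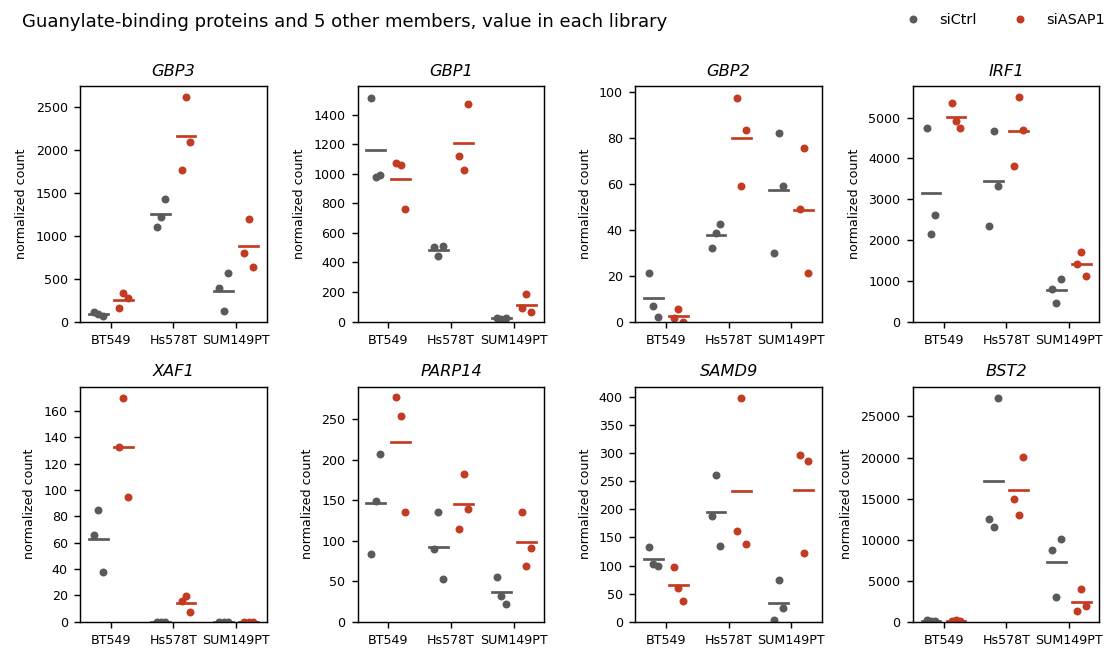
Normalized count of GBP3, GBP1, GBP2, IRF1, XAF1, PARP14, SAMD9 and BST2 in each library (points; line, mean of 3 replicates) for siCtrl (grey) and siASAP1 (red), each panel with its own linear axis from 0. For GBP3 the red points lie above the grey ones in all 3 lines, and for BST2 in SUM149PT the means stand in the opposite order.

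Of the transcription factors, STAT2, which joins IRF9 in the ISRE-binding complex, passed in SUM149PT. It was at 503, 272 and 556 in siCtrl and at 943, 947 and 720 in siASAP1 (Log2 FC 1.02 ± 0.42 SE, limma adjusted p = 0.470), but not past the limits without siCtrl replicate 2 (0.71 ± 0.34 SE, adjusted p = 0.231), and with 1 library left out at a time it passed in 1 of 6. In BT549 it was at 206, 194 and 207 and then at 124, 211 and 258, and in Hs578T at 405, 543 and 606 and then at 348, 500 and 391. IRF1, an activator of GBP genes and of antigen presentation, passed in no line, and its Log2 FC was 0.75 ± 0.36 SE, 0.48 ± 0.29 SE and 0.94 ± 0.43 SE in BT549, Hs578T and SUM149PT (0.60 ± 0.35 SE in SUM149PT without siCtrl replicate 2), shown after these values were seen. It was at 4732, 2135 and 2604 and then at 5355, 4911 and 4750 in BT549, and at 802, 452 and 1049 and then at 1402, 1697 and 1120 in SUM149PT, with no overlap in either. In Hs578T it was at 2331, 4678 and 3330 and then at 3812, 5507 and 4705, with overlap. IRF3, which is activated by phosphorylation more than by transcription, and IRF2 passed in no line.

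Of the membrane factors, 1 of 4 tested probes was lower in BT549 and 2 of 5 in SUM149PT, and 0 were higher in any line, where 3.69% and 4.29% of all probes were lower in BT549 and SUM149PT. IFITM3, which keeps enveloped viruses from fusing with the cell, was at 2937, 1477 and 1134 in BT549 siCtrl and at 727, 1108 and 631 in siASAP1 (Log2 FC −1.09 ± 0.43 SE, limma adjusted p = 0.612). In Hs578T it was at 5395, 6492 and 5201 and then at 6635, 7865 and 6824, higher without overlap and not past the limits (0.32 ± 0.21 SE), and in SUM149PT at 2200, 2039 and 1865 and then at 773, 2426 and 1025 (−0.70 ± 0.49 SE without siCtrl replicate 2). BST2 in SUM149PT was at 8789, 3054 and 10110 in siCtrl and at 1359, 3937 and 1923 in siASAP1 (−1.57 ± 0.59 SE, adjusted p = 0.443), and −2.12 ± 0.45 SE without siCtrl replicate 2 (adjusted p = 0.0602). In BT549 and Hs578T its groups overlapped. The less abundant IFITM2 probe fell in SUM149PT from 80.1, 47.4 and 84.7 to 19.8, 32.0 and 15.8 (−1.62 ± 0.62 SE, adjusted p = 0.456, and −1.88 ± 0.68 SE without siCtrl replicate 2), while the other IFITM2 probe was at 1775, 614 and 1667 and then at 635, 2309 and 1075, so the 2 probes of the gene did not give the same picture. Leaving out 1 library at a time, IFITM3 in BT549 had −0.70 (without siCtrl replicate 1) to −1.38 and passed in 3 of 6, BST2 in SUM149PT −1.23 (without siASAP1 replicate 1) to −2.12 and the less abundant IFITM2 probe −1.41 (without siASAP1 replicate 3) to −1.90, each passing in 2 of 6.

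Of the other interferon-stimulated genes among the 49, 2 of 10, 2 of 11 and 2 of 10 tested probes passed upward in BT549, Hs578T and SUM149PT, where 3.28%, 1.34% and 5.27% of all probes did so. In Hs578T, IFI27, a mitochondrial protein often among the strongest targets of type I interferon, went from 16.0, 0 and 15.8 to 81.6, 43.4 and 110 (Log2 FC 3.49 ± 1.07 SE, limma adjusted p = 0.915). In the same line TRIM22, a ubiquitin ligase shown after its values were seen, went from 4.22, 7.34 and 0 to 35.1, 73.4 and 13.9 (3.28 ± 1.11 SE, adjusted p = 0.915). It reached the minimum for testing only through the siASAP1 group (mean 40.8 against 3.85), so it had to differ, and its place in the counts is no support for them. It had at most 1 read in any library of the other lines. XAF1 in Hs578T went from 0 in 3 libraries to 15.9, 19.7 and 7.46, at least 17.7-fold higher against 3 reads over the group and below the minimum for testing. In BT549 XAF1 went from 66.1, 84.9 and 37.9 to 132, 170 and 94.9 (1.10 ± 0.49 SE, adjusted p = 0.639), and in SUM149PT it had no read. BT549 also held IFIT3, the partner of IFIT1, at 91.1, 18.9 and 32.3 and then at 76.4, 124 and 163 (1.57 ± 0.63 SE, adjusted p = 0.613), with overlap, and IFI35 at 8.73, 6.29 and 18.2 and then at 24.9, 24.5 and 129 (1.99 ± 0.84 SE, adjusted p = 0.630). IFIT3 in the other lines was at 114, 32.6 and 144 and then at 177, 89.0 and 191 in Hs578T, and at 61.5, 13.7 and 55.9 and then at 10.6, 69.2 and 0 in SUM149PT (−2.68 ± 1.60 SE without siCtrl replicate 2). PARP14, an ADP-ribosyltransferase, went in SUM149PT from 55.8, 31.9 and 22.4 to 135, 69.2 and 90.7 (1.44 ± 0.60 SE, adjusted p = 0.470, and 1.39 ± 0.64 SE without siCtrl replicate 2, where it did not pass). IFI6 was at 258, 600 and 214 and then at 486, 748 and 516 in Hs578T (0.83 ± 0.41 SE), at 151, 52.8 and 42.1 and then at 70.2, 60.4 and 24.6 in BT549, and under 13 in SUM149PT, and passed in none. Leaving out 1 library at a time gave 2.13 (without Hs578T siCtrl replicate 2) to 4.18 for IFI27, which passed each time, and 2.37 (without Hs578T siCtrl replicate 3) to 3.90 for TRIM22, which passed in 4 of 6. In BT549 it gave 1.21 (without siASAP1 replicate 3) to 2.39 for IFI35, 1.08 (without siCtrl replicate 2) to 2.18 for IFIT3 and 0.77 (without siCtrl replicate 3) to 1.35 for XAF1, which passed in 3, 2 and 2 of 6. PARP14 in SUM149PT had 1.15 (without siCtrl replicate 3) to 1.79 and passed in 2 of 6.

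**Figure D4:**
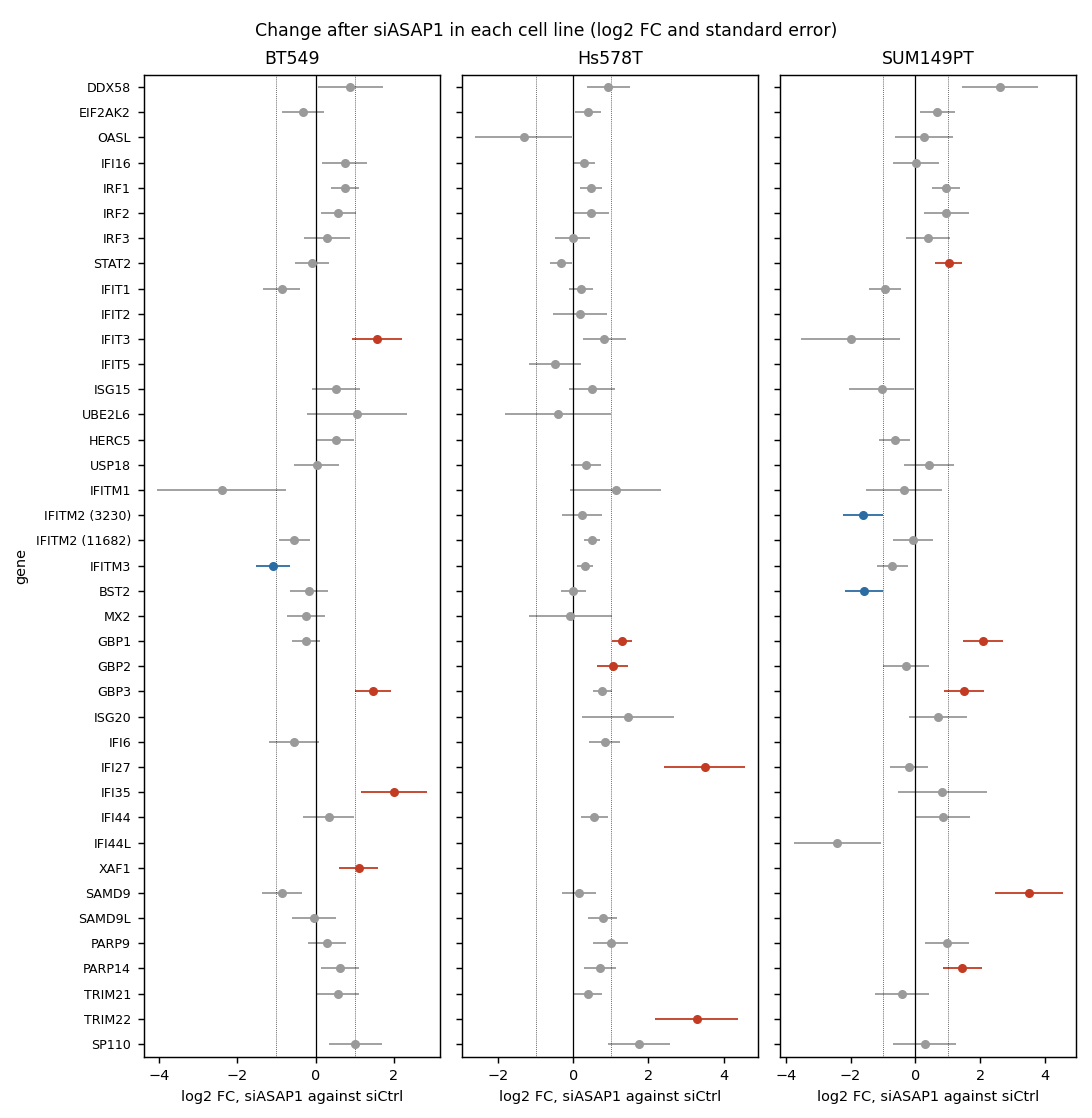
Log2 FC of siASAP1 against siCtrl with its standard error for each tested member probe in BT549, Hs578T and SUM149PT (red, passed upward; blue, passed downward; grey, not passed; no point, mean normalized count under 10). Red points lie at GBP3, IFI35, IFIT3 and XAF1 in BT549, at GBP1, GBP2, IFI27 and TRIM22 in Hs578T, and at GBP1, GBP3, PARP14, SAMD9 and STAT2 in SUM149PT.

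By the plain order of values, 5 tested members had every siASAP1 library above every siCtrl library in BT549 and 3 below, where 7.35% and 6.51% of all probes did so. In Hs578T 8 were above and 0 below, where 6.31% and 5.78% did so. The 8 probes in Hs578T were GBP1, GBP2, GBP3, IFI27, IFI44, IFITM2, IFITM3 and TRIM22. In SUM149PT 6 were above and 3 below, where 8.87% and 8.41% did so. Of 23 member probes tested in all lines, 10 had a positive Log2 FC in each line and 1 a negative one, beside 19.3% and 19.9% of all 7990 such probes.

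Over the 3 lines together, with the line as a covariate, GBP3 passed an adjusted p of 0.05 (Log2 FC 1.25 ± 0.26 SE, limma adjusted p = 0.0173, higher in 9 of 9 siASAP1 libraries than in any siCtrl library of the same line). It was 1 of 35 tested member probes, and 0 were lower, where 0.678% of all probes were higher and 1.06% lower. Without SUM149PT siCtrl replicate 2 its Log2 FC was 1.05 ± 0.21 SE (adjusted p = 0.0139). The call was lost with a replicate block (adjusted p = 0.0987) and with a GC correction (1.28 ± 0.39 SE, adjusted p = 0.0872). With both SUM149PT libraries numbered 2 left out it was 0.99 ± 0.21 SE (adjusted p = 0.0288). The members nearest to the limit were IRF1 (0.72 ± 0.20 SE, adjusted p = 0.0723), GBP1 (1.04 ± 0.30 SE, 0.0772), XAF1 (1.65 ± 0.49 SE, 0.0940) and PARP14 (0.93 ± 0.29 SE, 0.107). IFIT1 had a negative Log2 FC (−0.53 ± 0.25 SE, adjusted p = 0.316), and ISG15 was at −0.01 ± 0.47 SE. A difference of the siASAP1 effect between lines passed in 0 of 35 members (4 at an unadjusted p under 0.05), where 0.00955% of all probes did so. XAF1 came closest (adjusted p = 0.172), then GBP1 (0.199) and SAMD9 (0.349). XAF1 had no read in any SUM149PT library, so that line gave it neither a change nor a spread in both of these fits.

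**Figure D5:**
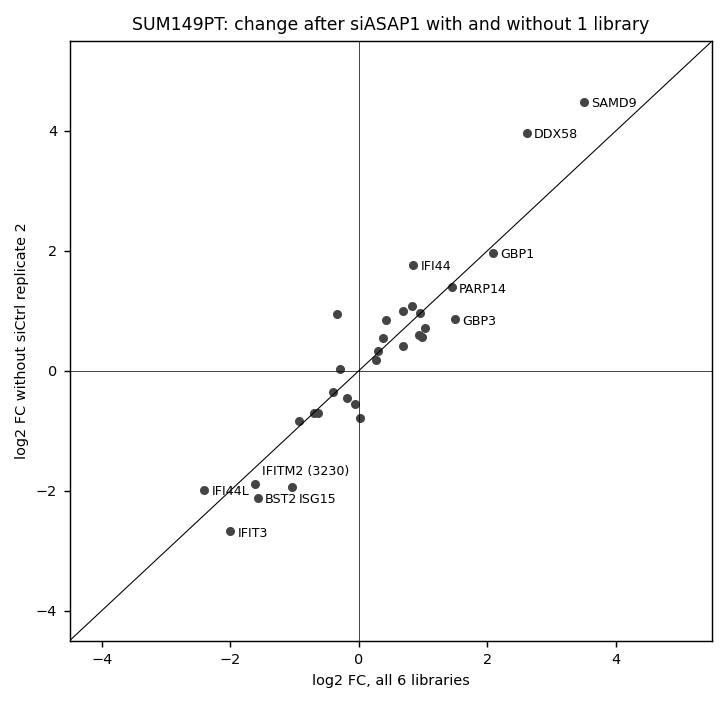
Log2 FC of the member probes in SUM149PT with all 6 libraries (horizontal axis) and without the library labelled siCtrl replicate 2 (vertical axis), with the line of equal values. DDX58 and SAMD9 lie above the line, GBP3 lies below it, and GBP1 and PARP14 lie close to it.

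Of the companion genes of the pathway, APOL1, an interferon-inducible apolipoprotein, rose over the 3 lines (Log2 FC 1.67 ± 0.34 SE, limma adjusted p = 0.0140). It was at 4.99, 5.03 and 9.12 and then at 16.9, 35.9 and 12.8 in BT549, at 57.4, 80.0 and 77.8 and then at 135, 150 and 144 in Hs578T, and at 4.29, 7.29 and 4.80 and then at 58.2, 30.8 and 22.3 in SUM149PT, with no overlap in any line. It was the 1 that passed of 19 tested probes of a companion list of interferon-stimulated genes outside the 49, where 0.678% of all probes were higher. In single lines 0 of 19, 0 of 22 and 2 of 18 tested probes of this list were higher in BT549, Hs578T and SUM149PT, and 0 were lower. Of all probes 3.28%, 1.34% and 5.27% passed upward there, and 3.69%, 1.44% and 4.29% downward. The median Log2 FC of the list was 0.17, 0.19 and 0.75. APOL1 was among the probes of the list that passed in SUM149PT, where it was tested only through the siASAP1 group (mean 37.1 against 5.46). Of 9 tested probes for receptors and JAK-STAT proteins, 0 passed over the 3 lines, as did 0 of 10 for adapters and kinases and 0 of 3 for Toll-like and DNA receptors. Over the 3 lines 0.678% of all probes were higher and 1.06% lower, so counts of 0 among so few probes say little. The type I interferon receptor chain IFNAR2 was lower in BT549 (−1.12 ± 0.47 SE, adjusted p = 0.630). Among 24 probes for interferon genes IFNE alone reached the minimum for testing over the 3 lines. It was not past the limits in BT549 or Hs578T and was below the minimum for testing in SUM149PT. The reads of all other interferon probes together were 0, 9 and 9 in BT549 siCtrl and 0, 4 and 54 in siASAP1, 6, 0 and 0 and then 0, 6 and 0 in Hs578T, and 0, 17 and 1 and then 4, 16 and 0 in SUM149PT. The 54 reads were 20 of IFNA17, 11 each of IFNA8 and IFNL2, 6 of IFNA16, 5 of IFNL3 and 1 of IFNA1, and the 16 were all of IFNA2. The reads thus lay in siCtrl and siASAP1 libraries alike, with the most in 1 BT549 siASAP1 library. CXCL10 and CCL5, chemokines that interferon and RNA sensing induce, had a mean of at most 1.21 in any group.

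Markers of other cells were read beside these results. Of 9 probes for markers of leukocytes and other cell types, HBB and PECAM1 among them, 5 had no read in any library. The 2 that reached the minimum for testing over the 3 lines were CD68, a lysosomal protein and the most abundant, and a PECAM1 probe. In SUM149PT the PECAM1 probe had 55, 113 and 32 reads in siCtrl and 69, 20 and 66 in siASAP1. CD68 had 30, 20 and 26 reads and then 17, 116 and 14 there, so the summed level of the list held both genes in that line. CD68 rose in Hs578T (Log2 FC 1.41 ± 0.33 SE, limma adjusted p = 0.711). In BT549 its Log2 FC was 2.12 ± 0.78 SE (adjusted p = 0.599), where it was tested only through the siASAP1 group (mean 41.4 against 8.43), and the summed level of the list was 4.40 to 12.6 in BT549 siCtrl and 22.2 to 61.1 in siASAP1, 105 to 147 and then 275 to 368 in Hs578T, and 92.7 to 122 and then 109 to 174 in SUM149PT. CD3E, which defines T cells, had no read, and PTPRC, which defines leukocytes, had 3 reads in 1 library. The epithelial marker EPCAM stood at 29532 ± 8322 (SD, n = 3) in SUM149PT siCtrl, at 19.01 ± 7.29 in Hs578T and at 1.72 ± 0.69 in BT549, and CDH1 had no read in BT549 and Hs578T. The more abundant probe of the mesenchymal marker VIM stood at 2622 ± 545, 151322 ± 59073 and 32100 ± 4506 in the same order. After siASAP1, 1 of 5 tested epithelial probes was higher in SUM149PT and 0 lower (median Log2 FC −0.19), and 3 of 6 mesenchymal probes were higher and 1 lower, where 5.27% of all probes were higher and 4.29% lower. CDH1 was at 87.9 to 114 in siCtrl and at 210 to 263 in siASAP1 (Log2 FC 1.24 ± 0.42 SE, adjusted p = 0.411), whereas KRT8 was at 11141, 10256 and 17042 and then at 7746, 10006 and 8739, lower with no overlap and not past the limits (−0.51 ± 0.35 SE). All 3 FN1 probes were higher and VIM was lower (−1.48 ± 0.36 SE, adjusted p = 0.334). In Hs578T EPCAM was higher (1.42 ± 0.61 SE, limma adjusted p = 0.923). In BT549 0 of 7 mesenchymal probes passed, but all 7 had a positive Log2 FC (median 0.81). There 4 had every siASAP1 library above every siCtrl library, where 7.35% of all probes did. In Hs578T 0 of 7 passed (median 0.09), and over the 3 lines 1 of 7 was higher by adjusted p, where 0.678% of all probes were. The part of these marker changes in the results above was not tested.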

How the data were processed

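TempO-Seq libraries (18, from 3 cell lines) were analysed from 1 table. The authors deposited log2 values, made from reads per probe (bcl2fastq, Bowtie and DESeq2 are named in the submitters' processing notes; the genome build is not given in the sources used here) by division through DESeq2 size factors, addition of 1 and log2. The values gave whole reads for 100% of entries within 0.01 read, and 0 columns were left unused. Log2 (normalized count + 1) was fitted per line with limma 3.58.1 in R 4.3.3 (eBayes with trend, Benjamini-Hochberg over all probes whose mean normalized count reached 10), and over all lines with line as covariate or with an interaction. A fold change on this scale understates changes of low genes. Single lines were called by the study's limits (p under 0.05, absolute Log2 FC over 1), the 3-line and interaction tests by adjusted p under 0.05, and baseline by adjusted p under 0.05 with absolute Log2 FC over 1. The fits were also run on simulated counts with independent libraries, in which only well-read probes were changed. Those counts held no GC-linked deviation and no library like the other treatment, so the run does not cover these features or changes of low genes. Members and lists were chosen with earlier results of these data known. Values in every library were given for a fixed core of genes, for the members called after siASAP1 (up to 10 by the 3-line p) and for up to 3 members per baseline comparison and direction. Alternatives covered scaling, filter, pseudocount, weights, pooling of libraries, replicate block and single libraries left out. Replicates are biological triplicates per the study, and intervals were exact at 95%. Some companion genes are not reported here.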

Additional observations from a re-analysis of the deposited data

Results flagged for a closer look

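In 2 genes every siASAP1 library moved one way in 1 line and the opposite way in another. IFITM3 had a Log2 FC of −1.09 in BT549 and 0.32 in Hs578T, and the test of the difference over the 3 lines did not pass (limma interaction, adjusted p = 0.826). SAMD9 had a Log2 FC of −0.86 in BT549 and 3.50 in SUM149PT (limma interaction, adjusted p = 0.349), and the SUM149PT value was 4.48 without the library labelled siCtrl replicate 2. Its interaction passed with both SUM149PT libraries numbered 2 left out (limma adjusted p = 0.0164). It also passed without SUM149PT siCtrl replicate 2 and BT549 siASAP1 replicate 1 (0.0219). Both choices were made after seeing the likeness of the libraries, so these p-values are too small.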

How the results depend on the processing

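No member that passed turned its direction under any alternative run. Members that did not pass could change sign, among them ISG15 over the 3 lines (−0.01, and 0.11 without BT549 siASAP1 replicate 1) and, with both SUM149PT libraries numbered 2 left out, IFI16 (0.02 to −1.03) and IFITM1 (−0.35 to 0.52) in SUM149PT. Counted by adjusted p, 0 members were higher and 0 lower in each line (4 and 1 in BT549, 4 and 0 in Hs578T, 5 and 2 in SUM149PT by the study's limits), and over the 3 lines 5 were higher by the unadjusted limits in place of 1. A minimum mean normalized count of 50 left 2 higher in BT549, 2 in Hs578T and 1 lower in SUM149PT, and at baseline 3 higher in SUM149PT than in BT549 (8) and 1 than in Hs578T (3). No filter, a pseudocount of 0.1 and upper quartile scaling each left 1 in the last comparison. A fit of all 18 libraries gave 1 higher in BT549 and in SUM149PT 8 members past the limits in place of 7, with GBP1 and SAMD9 past an adjusted p of 0.05 (limma, 0.00589 and 0.0255; 260 of all 10078 probes), upper quartile scaling 3 higher in SUM149PT, and probes summed by symbol 1 lower. Library totals alone, which moved the median Log2 FC of all probes to 0.30 in SUM149PT and 0.15 over the 3 lines, gave 1 lower in SUM149PT, 2 higher over the 3 lines and 5 higher at baseline in SUM149PT than in BT549. The interaction gave 1 member with a pseudocount of 0.1. Most of these member counts are printed without the share of all probes that passed under the same setting, and those are a description only.

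Chosen after seeing the data, a GC correction gave 0 higher over the 3 lines, and leaving out SUM149PT siCtrl replicate 2 and BT549 siASAP1 replicate 1 gave 1 member in the interaction. Both counts stand without a share of all probes and are a description only. Leaving out both SUM149PT libraries numbered 2 gave 7 lower in SUM149PT, 6 in the interaction (683 of all 10347 probes) and −2.39 for ASAP1 knockdown in SUM149PT (limma adjusted p = 0.000592), where p-values are too small because likeness chose the libraries. With the main axis of replicate deviations as covariate, 6 were higher over the 3 lines and 5 differed between lines, and an adjusted p of 0.05 was passed by ASAP1 knockdown in Hs578T (−0.98, limma adjusted p = 0.0137) and ASAP1 knockdown in SUM149PT (−1.16, adjusted p = 0.0102). That axis comes from the same residuals, so these p-values are too small. Calls rose over all probes too, and in BT549 1459 of 9666 had an unadjusted p under 0.05, in place of 754. The member counts of this fit are thus a description only.

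By the limit of r over 0.1 in every pair, replicate numbers did not pair the libraries, though in Hs578T the lowest r missed it narrowly (r of deviations 0.099 to 0.35 in Hs578T, −0.35 to 0.11 in BT549, −0.65 to −0.32 in SUM149PT; 6 of 6, 2 of 6 and 0 of 6 libraries correlated best with their own number). The replicate block gave 6 members past the limits in Hs578T in place of 4, with GBP1 past an adjusted p of 0.05 (1.29, adjusted p = 0.0213), 2 higher in BT549, 2 higher and 0 lower in SUM149PT and 0 higher over the 3 lines (GBP3 1.25, limma adjusted p = 0.0987), and ASAP1 knockdown in Hs578T passed (−0.98, adjusted p = 0.0483). In BT549 2.74% of all probes passed upward and 3.37% downward under the block. The other member counts under it stand without such a share and are a description only.

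Leaving out 1 library at a time gave 2 to 3 higher and 0 to 2 lower in BT549, 2 to 7 and 0 to 0 in Hs578T, 2 to 5 and 0 to 4 in SUM149PT, 1 to 1 and 0 to 0 over the 3 lines, and 0 to 1 in the interaction. In BT549 the share of all probes then ran from 1.36% to 9.28% higher and from 2.09% to 13.2% lower, both highest without siASAP1 replicate 1. At baseline leaving out 1 library gave 3 to 8 higher and 6 to 10 lower in SUM149PT against BT549, 1 to 3 and 6 to 13 against Hs578T, and 2 to 4 and 5 to 9 in BT549 against Hs578T. Ranges printed without a share of all probes are a description only. ASAP1 ranged from −0.95 to −0.41, −1.20 to −0.71 and −2.04 to −0.64 in BT549, Hs578T and SUM149PT. With 3 libraries per group and 3 reads worth up to 4.80, the 9 probes that stayed under 10 in every group mean were not tested, MX1 and OAS2 among them.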

Other observations

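The GBP family holds further members outside the 49 genes, which were looked at after the values of GBP1 and GBP3 had been seen. GBP5, by the more abundant of its 2 probes, was at 48.6, 31.9 and 57.5 in SUM149PT siCtrl and at 135, 190 and 99.9 in siASAP1, with no overlap (Log2 FC 1.59 ± 0.53 SE, limma adjusted p = 0.401). In BT549 it was at 0, 5.03 and 2.81 and then at 6.22, 25.5 and 24.6, and in Hs578T at 56.5, 58.7 and 88.7 and then at 71.4, 105 and 158. Over the 3 lines its Log2 FC was 1.61 ± 0.42 SE, just short of the limit (adjusted p = 0.0557). GBP4 in Hs578T was at 13.5, 31.8 and 35.5 and then at 55.5, 70.5 and 28.8, with overlap (0.93 ± 0.58 SE, adjusted p = 0.923).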
